A study of Mus musculus with 2 samples.

Results

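The histone genes of mouse embryonic stem cells were examined across an induction of the reprogramming factors Oct4, Sox2, Klf4 and c-Myc. The members were the 72 probesets, of 35556 in the table, whose annotation names only histone genes. A gene counted as a histone gene when its symbol, or an older symbol listed for it by RefSeq, begins with Hist1h, Hist2h, Hist3h, Hist4h, H2af, H3f or H1f. The older symbols were needed because the annotation uses newer names, in which Hist1h1c is H1f2 and H2afz is H2az1, and only 9 members carry a current symbol that begins in one of these ways. Of the 72, 55 name genes of the replication-dependent clusters (the Hist symbols) and 15 name variants (the other symbols). The other 2 name H2A genes of the clusters and the H3 gene H3c4 together with the variant H2ax, 1 of them with H2aj too.

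The cells were i-OSKM-ESC, a derivative of the KH2 embryonic stem cell line (strain 129) in which doxycycline switches on Oct4, Klf4, c-Myc and a Sox2 that carries an epitope tag. The plus doxycycline culture received 4 µg/mL of the drug on gelatin-coated plastic and was collected 24 hours later. The no doxycycline culture came from the same engineered line and was refed medium lacking the drug. Total RNA of each culture went to 1 array, so no difference below has a replicate error or a test, and precision is limited by how few arrays there are. KH2 cells without the transgenes but with doxycycline were not analysed here, so the drug and the factors cannot be told apart.

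Histones package DNA. H2A, H2B, H3 and H4 form the core around which DNA is wrapped, and H1 binds the linker between cores. The replication-dependent genes lie in clusters, are transcribed mainly in S phase, and give messages that end in a stem-loop in place of a poly(A) tail. Most variant histones are encoded outside these clusters and are made through the cell cycle from polyadenylated messages. Many of them replace core histones at particular places, as H3.3 and H2A.Z do at active genes. Many cluster genes are near-identical copies, so that 1 probeset can read several of them. A whole-transcript protocol was used to label the RNA.

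All values are the authors' log2 values, and a difference is the plus doxycycline value minus the no doxycycline value. A probeset passed the filter on low values when its mean over both arrays was at least 6.48, which is the table-wide median. It was called when it passed and differed at least 2-fold, and a 1.5-fold threshold was used as a second rule. Of the 23410 annotated probesets, 12724 passed. Over these 2-fold calls reached 0.644% in the lower direction and 0.715% in the higher direction, and 1.5-fold calls 3.29% and 2.73%. The medians of the arrays were 6.49 with doxycycline and 6.47 without it. All 10 embryonic stem cell markers passed the filter, 8 of them were below 0, and their median difference was -0.44. The lowest differences were those of Sox2 (10.88 with doxycycline and 11.89 without), Utf1 (10.87 and 11.83), Tdgf1 (11.53 and 12.26) and Dppa5a (12.49 and 13.01). Above 0 were Pou5f1, which encodes Oct4, at 12.46 with doxycycline and 12.05 without it, and Fgf4 at 10.38 in both. Sox2 and Pou5f1 are also factors that doxycycline switches on in this line. Whether their probesets read the RNA of the transgenes was not tested. Of 12 fibroblast feeder markers 5 passed. Over the 12 the median difference was 0.25, and 4 were below 0. Among those that passed, Col1a2 had 7.16 with doxycycline and 6.66 without it, Col1a1 7.61 and 7.16, Thy1 7.49 and 7.22, and Vim 10.56 and 10.67. Lum (3.63 and 3.38), Postn (4.80 and 4.55) and Dcn (4.81 and 4.54) lay below the filter with and without doxycycline. So did S100a4 (5.41 and 5.83) and Twist1 (5.71 and 5.83). The markers below 0 were these last 2, Vim, and Col3a1 (6.49 and 6.56), which passed. The part of either marker list in the histone differences was not tested.

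In all, 5 replication-dependent probesets were at least 1.5-fold lower with doxycycline, of 50 that passed the filter. Over all annotated probesets that passed, 3.29% were. The 5 read H2ac1, H2ac4, H1f2, H3c15, and the pair H4c17 and H4c11. H3c15 passed only through its level without doxycycline. The 50 are not separate observations, since many of them name the same genes. Promoters of the genes named by the 5 are shown first because these differences were the largest among replication-dependent probesets. H2bc3, an H2B gene whose difference was positive, is added for comparison. The sequences are RefSeq promoters of build GRCm38.p6, from 250 bases before to 50 bases after the start, written 5′ to 3′ in the direction of the gene. Capitals mark an octamer (ATTTGCAT, the site of POU factors such as Oct1 and Oct4), a CCAAT box (CCAAT, bound by NF-Y), an E-box (CACGTG, bound by Myc with Max) or a TATA box (TATAAA), on either strand.
H2ac1, chr13:23934187-23934486, plus strand: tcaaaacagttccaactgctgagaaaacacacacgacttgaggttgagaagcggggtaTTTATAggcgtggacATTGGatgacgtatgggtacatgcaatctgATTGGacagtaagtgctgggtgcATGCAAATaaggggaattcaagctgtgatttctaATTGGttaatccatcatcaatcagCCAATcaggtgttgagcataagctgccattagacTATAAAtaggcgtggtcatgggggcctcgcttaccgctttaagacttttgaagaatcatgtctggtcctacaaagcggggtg
H2ac4, chr13:23750838-23751137, plus strand: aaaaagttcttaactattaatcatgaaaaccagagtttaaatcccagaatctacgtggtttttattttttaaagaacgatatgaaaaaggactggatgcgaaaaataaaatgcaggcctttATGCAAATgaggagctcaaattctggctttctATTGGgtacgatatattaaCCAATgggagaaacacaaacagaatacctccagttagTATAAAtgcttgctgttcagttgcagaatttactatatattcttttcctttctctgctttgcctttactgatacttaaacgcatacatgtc
H2bc3, chr13:23746484-23746783, plus strand: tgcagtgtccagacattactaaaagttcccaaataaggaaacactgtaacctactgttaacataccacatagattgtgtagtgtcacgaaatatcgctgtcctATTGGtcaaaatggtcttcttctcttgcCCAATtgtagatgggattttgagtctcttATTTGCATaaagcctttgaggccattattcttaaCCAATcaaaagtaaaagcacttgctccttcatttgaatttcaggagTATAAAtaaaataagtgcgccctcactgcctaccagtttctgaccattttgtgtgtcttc
H1f2, chr13:23738557-23738856, plus strand: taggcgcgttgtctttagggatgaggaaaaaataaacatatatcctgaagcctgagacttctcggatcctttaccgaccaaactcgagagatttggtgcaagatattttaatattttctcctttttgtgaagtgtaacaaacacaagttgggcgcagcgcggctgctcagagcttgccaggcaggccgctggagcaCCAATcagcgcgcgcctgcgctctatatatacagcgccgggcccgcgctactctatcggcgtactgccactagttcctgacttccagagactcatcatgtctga
H3c15, chr3:96239078-96239377, minus strand: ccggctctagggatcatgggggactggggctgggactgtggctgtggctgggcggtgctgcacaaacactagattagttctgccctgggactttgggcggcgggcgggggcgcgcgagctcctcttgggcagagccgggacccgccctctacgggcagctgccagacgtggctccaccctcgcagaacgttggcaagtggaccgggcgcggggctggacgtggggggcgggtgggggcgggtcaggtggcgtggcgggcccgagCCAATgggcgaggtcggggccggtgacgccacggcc
H4c17, chr13:21811496-21811795, plus strand: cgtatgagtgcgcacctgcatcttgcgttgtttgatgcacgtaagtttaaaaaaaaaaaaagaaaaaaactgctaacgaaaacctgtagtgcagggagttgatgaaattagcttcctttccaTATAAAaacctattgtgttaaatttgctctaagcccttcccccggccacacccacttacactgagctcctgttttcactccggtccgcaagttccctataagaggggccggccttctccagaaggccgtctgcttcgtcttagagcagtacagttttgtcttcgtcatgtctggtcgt
H4c11, chr13:21734784-21735083, plus strand: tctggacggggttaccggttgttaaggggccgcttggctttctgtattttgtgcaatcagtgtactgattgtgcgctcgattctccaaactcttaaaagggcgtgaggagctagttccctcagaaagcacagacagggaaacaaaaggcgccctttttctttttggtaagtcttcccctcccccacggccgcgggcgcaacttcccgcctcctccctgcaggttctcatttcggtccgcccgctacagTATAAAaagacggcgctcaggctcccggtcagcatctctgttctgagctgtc

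The octamer appears in the windows of H2ac1, H2ac4 and H2bc3 and in none of the other 4. All but H4c17 and H4c11 hold a CCAAT box, which in H3c15 lies after the start, and none of the 7 windows holds an E-box. These letters describe the windows and show no binding.

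Most replication-dependent members had a difference below 0, and few of them reached a called size. Of the 55 probesets, 43 had a difference below 0, against 48.7% of all annotated probesets, and their median difference was -0.10 against 0.01 for all annotated probesets. Of the 55, 50 passed the filter. Of those 50, 40 were below 0 and the median was -0.10, against 55.8% and a median of -0.03 for all annotated probesets that passed. Those at least 2-fold lower were 2, H2ac1 and H3c15, against 0.644% of all annotated probesets that passed, and 0 were at least 2-fold higher. H3c15 reached the filter only through its level without doxycycline, and with a mean of at least 7 the count of 2-fold lower probesets was 1. Among the 40 below 0, H4c8 too reached the filter only through its level without doxycycline. By the 1.5-fold rule 5 were lower and 0 higher. Differences ran from -1.17 to 0.11. In RNA from a whole culture, fewer cells in S phase and less histone RNA per cell cannot be told apart.

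**Figure D1:**
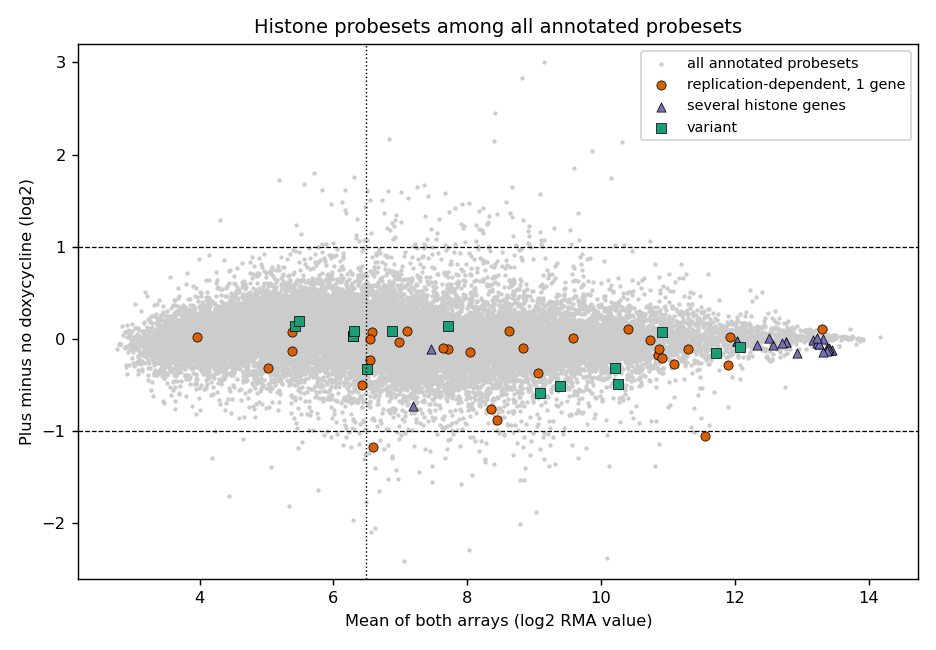
Difference (plus minus no doxycycline, log2) against the mean of both arrays for all annotated probesets (grey) and the histone probesets (coloured by kind); dashed lines mark 2-fold and the dotted line the filter at 6.48. The 2 called replication-dependent probesets lie below the lower dashed line, and the probesets naming several genes sit mostly at the bright end, close to 0.

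Probesets that name 1 gene and probesets that name several were summarised apart. A probeset that names 1 gene may still read near-identical copies, which could not be checked without probe sequences. The 31 single-gene probesets ran from -1.17 to 0.11 with a median of -0.11, and 21 were below 0. The 24 shared probesets ran from -0.73 to 0.01 with a median of -0.08, and 22 were below 0. Most shared probesets were bright: 22 of the 24 had a mean of at least 12, and these ran from -0.15 to 0.01. Over all 491 annotated probesets of that brightness, the median difference was 0.01, the robust SD 0.075, and 0 reached 1.5-fold in either direction. Over the 12233 annotated probesets between the filter and 12 the robust SD was 0.235. The 55 probesets are not 55 observations, since 10 of them name the same 12 H3 genes and the shared H2B and H4 probesets overlap likewise. A total of 3 pairs of members held identical values in both arrays, 1 pair each for shared H2B, shared H4 and the variant H2ab1.

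**Figure D2:**
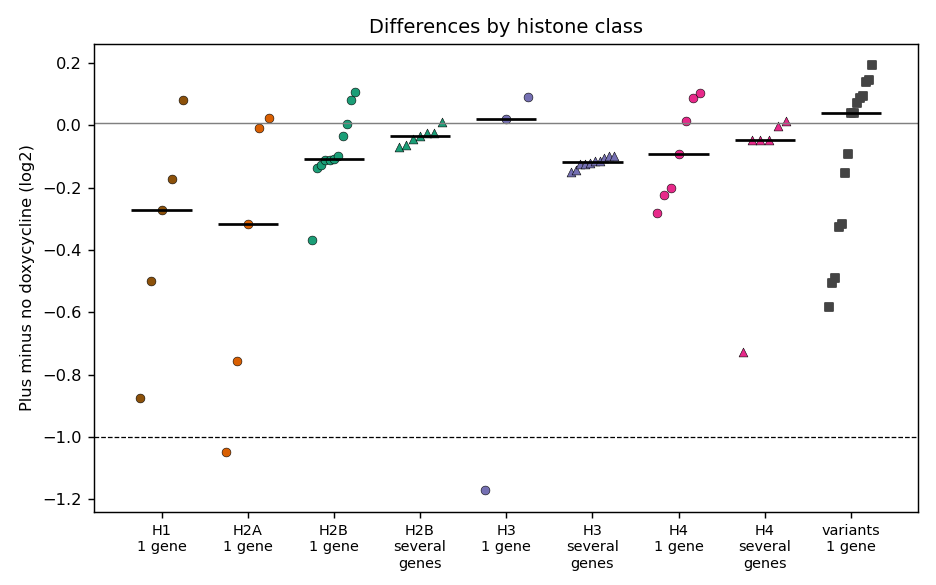
Differences (plus minus no doxycycline, log2) of the replication-dependent probesets by histone class and by whether a probeset names 1 gene (circles) or several (triangles), with variants as squares; bars are medians, the grey line is the median of all annotated probesets and the dashed line is 2-fold lower. The medians of H1 and H2A are -0.27 and -0.32, with H2A at -0.16 when H2ac1 is left out, and shared H3 probesets lie together between -0.15 and -0.10.

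The linker histones of the clusters had 5 probesets of their own, with a median of -0.27 and 4 of 5 below 0. H1f2 (older symbol Hist1h1c), a somatic H1, had 8.002 with doxycycline and 8.88 without it. That is a difference of -0.87, or 1.83-fold lower, under the 2-fold rule and past the 1.5-fold rule. H1f3 had 6.17 with doxycycline and 6.67 without it, and its mean lay below the filter. H1f1 and H1f5, further somatic H1 genes, were nearer to 0. H1f1 was at 10.95 with doxycycline and 11.22 without, and H1f5 at 10.77 with doxycycline and 10.94 without. H1f6, the H1 of spermatocytes, was below the filter at 5.43 and 5.34. H1f4 is read only together with the H2B gene H2bc6, on a probeset at 7.40 with doxycycline and 7.51 without.

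H2A had 5 single-gene probesets, from -1.05 to 0.02, with a median of -0.32. That median was -0.16 without H2ac1, and also -0.16 after 32 was added to the linear signal. H2ac1, which encodes TH2A, a histone known from the testis, had 11.03 with doxycycline and 12.08 without it, 2.07-fold lower and past the 2-fold rule. H2ac4 had 7.97 with doxycycline and 8.73 without it, 1.69-fold lower. H2ac8 had 4.87 and 5.19, both below the filter. The other 2 H2A genes were close to 0, with H2aw, of the Hist3 cluster, at 10.72 and 10.73 and H2ac15 at 11.93 and 11.91 with and without doxycycline. The 2 probesets that name many H2A genes along with H2ax and H3c4 had differences of -0.01 and -0.03. They were at 13.17 with doxycycline and 13.18 without, and at 12.75 with doxycycline and 12.78 without. The genes behind these shared probesets include H2ac4, H2ac8 and H2ac15, which also have a probeset of their own, as do H2ax and H3c4.

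H2B had no probeset past either threshold, of 17 that passed the filter. Over all annotated probesets that passed, 1.5-fold calls reached 3.29% lower and 2.73% higher, and 2-fold calls 0.644% and 0.715%. The 11 single-gene H2B probesets ran from -0.37 to 0.11 with a median of -0.11, and 8 were below 0. H2bc4 (Hist1h2bc) was the lowest of them, with 8.87 with doxycycline and 9.24 without it. H2bc1, which encodes TH2B, the testis partner of TH2A, had 7.97 and 8.11, a difference of -0.14. Another 5 lay between -0.13 and -0.10. With and without doxycycline they had 5.32 and 5.45 (H2bc21, below the filter), 10.82 and 10.93 (H2bc9), 7.65 and 7.76 (H2bc8), 11.25 and 11.36 (H2bc14) and 8.78 and 8.88 (H2bc18). Positive differences were seen in H2bc3, with 10.46 with doxycycline and 10.35 without, in H2bc22 (6.61 and 6.53) and in H2bu2 (6.55 and 6.54). The transcribed pseudogene H2bu1-ps had 6.97 and 7.002. The 7 shared H2B probesets ran from -0.07 to 0.01, at 12.02 to 12.75 with doxycycline and 12.05 to 12.78 without.

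H3 was read mainly by shared probesets. The 10 of them, each naming the same 12 genes, were all below 0, between -0.15 and -0.10, with levels of 12.85 to 13.38 with doxycycline and 13.00 to 13.51 without. Among 465 other annotated probesets of mean at least 12, 47 had a difference as low as the highest of these 10, which is 10.1%. The 10 share targets and count as 1 measurement of the H3 pool. H3c15 (Hist2h3c2), of the Hist2 cluster, had 6.01 with doxycycline and 7.18 without it. It was 2.25-fold lower, the largest difference among the members, and it passed the filter through its level without doxycycline. After 32 was added to the linear signal its difference was -0.88, under 2-fold. H3c4 had 7.15 and 7.06, and H3c7, below the filter, 3.98 and 3.96. H3c15 is also among the 12 genes of the shared probesets.

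H4 had 7 single-gene and 6 shared probesets. H4c17 and H4c11, read by 1 probeset, had 6.83 with doxycycline and 7.56 without it, 1.66-fold lower. The other 5 shared probesets, which name 11 H4 genes, were between -0.05 and 0.01, near 13.2 to 13.3 in both arrays. Among single-gene probesets, H4c14 of the Hist2 cluster was at 11.76 with doxycycline and 12.04 without it. H4c8 was at 6.44 and 6.66, H4c6 at 10.81 and 11.01, and H4c9 at 7.60 and 7.69. The H4c8 probeset passed the filter only through its level without doxycycline. Differences above 0 were those of H4c4 (13.35 with doxycycline and 13.24 without), H4c3 (8.67 and 8.58) and H4f16 (9.58 and 9.57). H4f16 is the H4 gene of the Hist4 cluster. The H4c4 probeset was near the level of the shared H4 probesets, and whether it reads other copies was not tested. None of the 7 single-gene H4 probesets passed the 1.5-fold rule, against 3.29% lower and 2.73% higher of all annotated probesets that passed the filter.

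**Figure D3:**
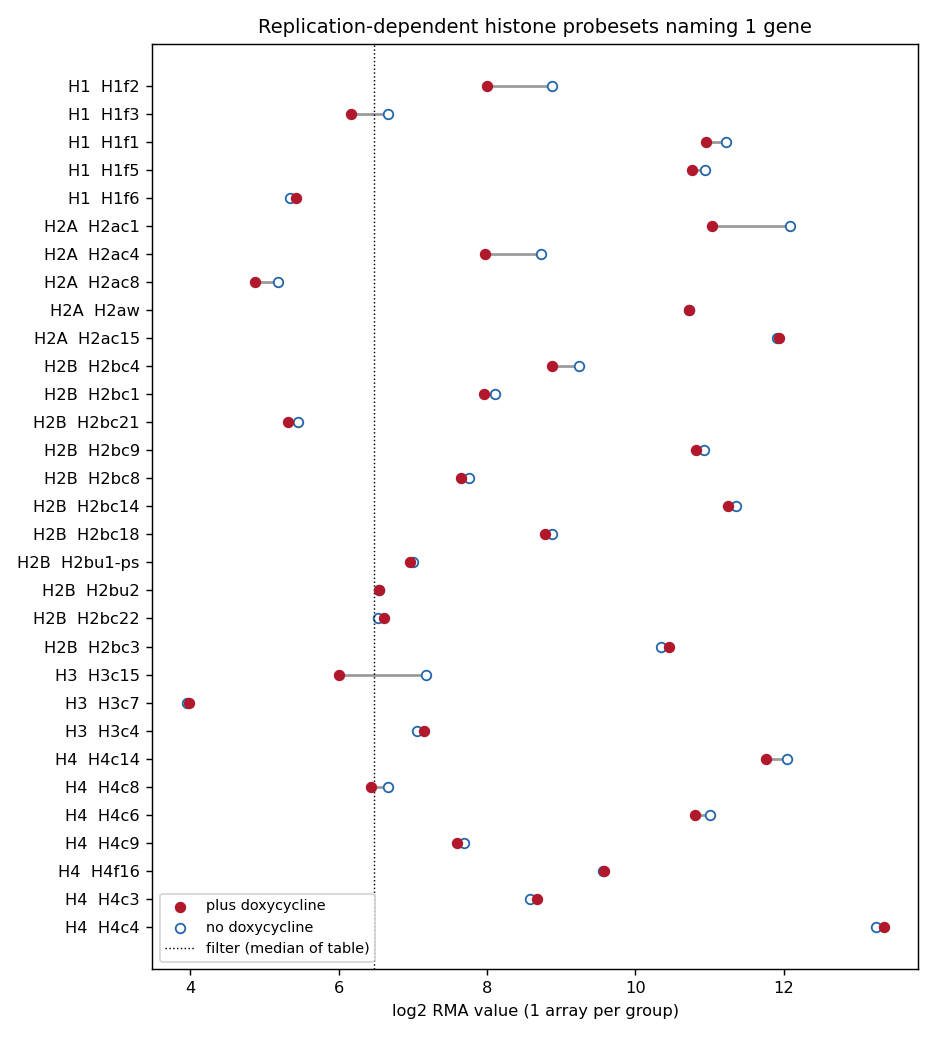
Log2 RMA values of the 31 replication-dependent probesets that name 1 gene, by histone class, with doxycycline (filled) and without (open), 1 array each; the dotted line is the filter at 6.48. H1f2, H2ac1, H2ac4 and H3c15 have the widest gaps, all with the filled point to the left.

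By cluster, the 23 single-gene probesets of Hist1 had a median difference of -0.11, with 15 below 0. The 4 of Hist2 had a median of -0.20, and all 4 were below 0. The 3 of Hist3 lay between -0.03 and 0.00245, and the 1 of Hist4 was at 0.01. Hist2, Hist3 and Hist4 hold too few members to set against Hist1.

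Promoter letters were set beside the differences. RefSeq promoters were at hand for 73 of the 82 genes that members name. A CCAAT box was found in 54 of 63 replication-dependent windows, against 37.4% of all 32851 promoter windows of the same length. Every H1, H2A, H2B and H3 window held it, and 3 of 12 H4 windows did. In H3c14 and H3c15 the only CCAAT box lay after the start. The TATA box was found in 35 of the 63, against 13.6% of all. The octamer was found in 14 of the 63, against 1.74% of all, and these were 7 of 18 H2A windows and 7 of 17 H2B windows. The E-box was found in 0 of the 63, against 7.15% of all. Neighbouring windows overlap, so the octamers came from 11 distinct positions. Among the 13 H2A and H2B genes with a probeset of their own and a window, the 9 with an octamer ran from -1.05 to 0.11 (median -0.11, 8 below 0). The 4 without one ran from -0.11 to 0.08 (median 0.01, 1 below 0), and the ranges overlap. Among the 9, H2ac1 and H2bc1 share the same octamer, as do H2ac8 and H2bc8, so the 9 are not separate observations. H2ac8 also lay below the filter. The motifs were picked with the differences known, and no site was tested.

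H2A and H2B genes often lie head to head, and 10 such pairs had start sites within 1000 bases of each other on opposite strands. In 2 pairs both genes had a probeset of their own. H2ac1 and H2bc1, with starts 281 bases apart, differed by -1.05 and -0.14. H2ac8 and H2bc8, with starts 180 bases apart, differed by -0.32 and -0.11, where H2ac8 lay below the filter. The H2A member of each pair had the lower difference, and whether these 2 differences are unequal could not be tested.

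The variants lay on both sides of 0. Their 15 probesets, all naming 1 gene, had a median difference of 0.04, with 7 below 0. The 10 that passed the filter had a median of -0.24, with 7 below 0. Among those below 0, Macroh2a3 passed only through its level without doxycycline. A mean of at least 7, which leaves out Macroh2a3 and H1f7, kept 8 probesets, with a median of -0.24 and 6 below 0. All annotated probesets that passed had a median of -0.03, with 55.8% below 0. Of the 10, 0 reached 1.5-fold, against 3.29% lower and 2.73% higher over all annotated probesets that passed. Levels of the variants lay between 5.50 and 12.03 with doxycycline and between 5.35 and 12.12 without.

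Among the H2A variants, Macroh2a2, one of the genes of the large macroH2A histones enriched on silent chromatin, was lowest. It had 8.80 with doxycycline and 9.38 without it, a difference of -0.5848, just short of the 1.5-fold line at 0.5850. Its paralog Macroh2a1 had 10.94 and 10.87, a difference of 0.07. H2ax, which is phosphorylated at DNA breaks, had 10.01 with doxycycline and 10.50 without, a difference of -0.49. H2az2, one of the genes of H2A.Z, had 10.05 with doxycycline and 10.37 without. H2az1, the other, had 11.64 and 11.79 on 1 probeset and 12.03 and 12.12 on another. The transcribed pseudogene Macroh2a3 had 6.34 and 6.67, and passed the filter only through its level without doxycycline. H2aj had 7.79 with doxycycline and 7.65 without. The testis variants H2ab1 (6.31 and 6.28) and H2al2a (6.35 and 6.26) were below the filter in both arrays.

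Of the H1 variants, H1f10 (older symbol H1fx) had 9.14 with doxycycline and 9.64 without it, a difference of -0.51. The germ cell variants H1f7 (6.93 and 6.83), of spermatids, and H1f8 (5.50 and 5.35), of oocytes, had small positive differences, and H1f8 was below the filter.

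H3.3 is encoded by H3f3a and H3f3b, and only 1 probeset names H3f3a alone. It was below the filter, at 5.58 with doxycycline and 5.38 without. The probesets at a high level also name a gene outside the rule and are no members. The 4 that name H3f3a with Gm12657 had differences of -0.12 to -0.03, and the 2 that name H3f3b with Gm6485 had -0.14 and -0.11. The H3f3b probesets were at 11.50 and 11.35 with doxycycline, against 11.64 and 11.46 without.

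**Figure D4:**
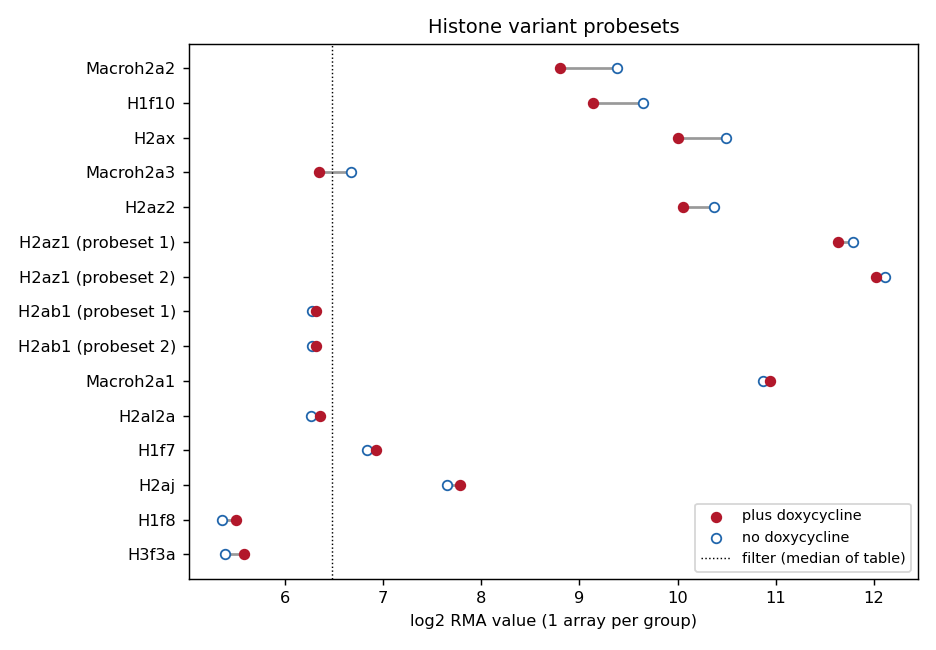
Log2 RMA values of the 15 variant probesets, with doxycycline (filled) and without (open), 1 array each, ordered by difference; the dotted line is the filter at 6.48. Macroh2a2, H1f10 and H2ax have the widest gaps, and most probesets with a positive difference lie near or below the filter.

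Genes that act on histones were counted from lists drawn up for this purpose. All but 1 of these genes passed the filter. Over all 10759 genes that passed, 56.4% were below 0, the median was -0.04, 3.53% were at least 1.5-fold lower and 2.9% at least 1.5-fold higher. Of 19 measured genes for transcription and end processing of histone messages, 13 had a difference below 0 and the median was -0.07. Srrt, whose product works with the cap-binding complex, had 9.60 with doxycycline and 10.23 without it, 1.55-fold lower and the 1 gene of this list past the 1.5-fold rule. Upf1, which takes part in the decay of histone messages, had -0.51, Hinfp, a regulator of H4 genes, -0.32, and Nfyb, a subunit of NF-Y, -0.32. Chaperones and importers had a median of -0.10 over 25 genes, 17 of them below 0 and 0 past the 1.5-fold rule. Asf1a, which carries H3 and H4, had -0.51, Supt6, also an elongation factor, -0.38, Ubn1 of the H3.3 chaperone HIRA -0.33, and Daxx, another H3.3 chaperone, -0.32. For exchange and modification of H2A.Z and H2A.X, all 13 genes were below 0, with a median of -0.12. The lowest were the damage kinase Atm at -0.45, Mdc1 at -0.33, Atr at -0.22 and Kat5 at -0.20.

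Genes of S phase were listed since histone messages follow DNA synthesis. DNA replication genes had a median of -0.08 over 37 genes, 25 below 0, against 56.4% of all genes that passed, and 0 past the 1.5-fold rule. The largest differences were those of the clamp loader subunits Rfc3 (-0.51) and Rfc5 (-0.42), the licensing factor Cdc6 (-0.46) and Rpa2 (-0.35), all lower with doxycycline. The cyclin E and E2F list had a median of -0.13 over 24 genes, 16 below 0, against the same 56.4%, and 2 past the 1.5-fold rule, against 3.53%. Those 2 were E2f8, a repressor of the E2F family, with 8.75 with doxycycline and 9.72 without it, and E2f2, with 7.23 and 7.94. Cdkn1b had -0.50 and E2f1 -0.45. The part of these S phase genes in the histone differences was not tested. Beside the symbol rule, 7 genes of histone variants, transition proteins and protamines were measured, with a median of 0.12. Of these, 2 passed the filter, with a median of -0.03. Cenpa, the H3 of centromeres, had 10.39 with doxycycline and 10.68 without it, and the protamine gene Prm2 6.66 and 6.44. Prm2 passed only through its level with doxycycline.

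**Figure D5:**
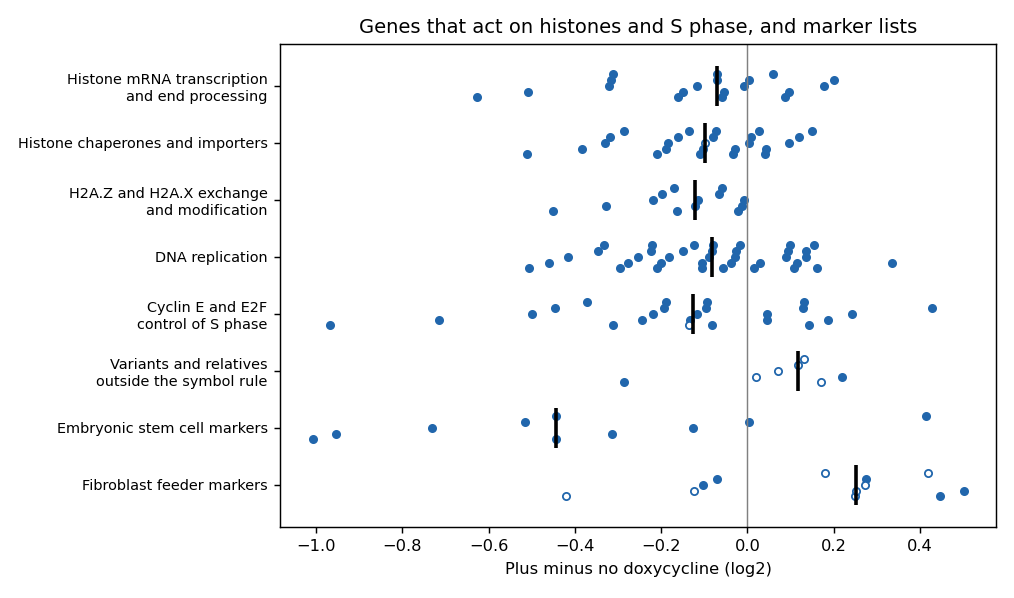
Differences (plus minus no doxycycline, log2) of the genes of 8 lists; filled points passed the filter, open points did not, and black bars are medians. The 5 lists for histone messages, chaperones, H2A.Z and H2A.X, DNA replication and S phase control have medians of -0.07 to -0.13, against -0.44 for the embryonic stem cell markers and 0.25 for the fibroblast markers.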

How the data were processed

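The authors ran Affymetrix Expression Console with RMA, per the submitters' processing notes, which corrects background, equalises the arrays and summarises probes. The deposited values are log2 values per probeset, used unchanged. Their versions and the genome build are not stated in these sources. A shift common to most transcripts is removed when RMA equalises the arrays. Depth does not apply to arrays. The plus and no doxycycline groups followed the sample titles, with 1 array each and no test.

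Probesets were named from the platform annotation: 21789 had 1 gene, 1621 several, and 12146 were not listed. Older symbols came from RefSeq (GRCm38.p6), where 93 genes match the rule. Members name 82 of these, 44 by a probeset of their own, and 10 are on no annotated probeset. H2al2a matches through an older symbol it shares with H2ab1. List genes were means of their single-gene probesets.

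All variant probesets are named. Of the replication-dependent ones, the rule names, in each class, the 3 brightest and the 3 largest rises and falls, and all past 1.5-fold; of each list, the 4 largest differences among genes that passed. Pou5f1, Fgf4, Lum, Postn, Dcn, Col3a1, S100a4 and Twist1 fall outside it and were added after their values were seen. Remaining members were named to give all values. Members, lists and motifs were chosen with earlier results of these data known. Alternatives were other filters, loess centring (fraction 0.3), quantile normalization, an offset of 32 on the linear scale, a 1.5-fold threshold, single-gene probesets and leaving out the most changed member. The steps were tested on simulated data. Calculations used pandas 2.3.3 and NumPy 2.4.6 in Python 3.11.15, with loess from statsmodels 0.14.6, and plots used matplotlib 3.10.9.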

Additional observations from a re-analysis of the deposited data

How the results depend on the processing

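The medians of the replication-dependent probesets and of their 5 classes were below 0 under the alternatives run, except that H3 by single-gene probesets, or by the mean of a gene over them, was at 0.0192 (3 probesets). The median of all replication-dependent probesets stayed between -0.11 and -0.07. The H2A median, -0.32, was -0.16 with the offset of 32 on the linear scale and -0.16 without its most changed member, H2ac1. The variant median, 0.04, was -0.24 with each filter (passing the median by the mean, by the higher of 2 arrays, or a mean of at least 7), the last leaving 8 of the 15 probesets and the others 10, and -0.02 after loess centring. Of 70 alternative values of these 7 medians, 63 moved by less than 0.133, and for the lists 60 of 64 did. That margin is the SD of a probeset difference within a gene (635 genes), used because no replicate spread exists. It exceeds the size of the medians of all replication-dependent probesets, H2B, H3, H4 and the variants. Such a median could therefore change sign within the margin, as the variant median did after loess centring. Keeping only single-gene probesets could not move the medians of H1, H2A and the variants, which have no others. For H1 and H2A, the mean of a gene and 1 value per distinct set of genes could not either. Nor could keeping genes that passed move a list in which all did. An unplanned alternative for the lists counted every single-gene probeset, and could not move a list whose genes have 1 each.

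The 2 replication-dependent probesets called 2-fold lower became 1 with a mean of at least 7 and 1 with the offset (H2ac1 in both, without H3c15), and 5 at 1.5-fold. No variant was called under any alternative run. Counting 1 value per distinct set of genes, chosen after seeing the data, left 2 calls. No paired analysis was possible because each group has 1 array, and for that reason no replicate could be left out. Without detection calls, low levels cannot be told from background.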
